A study of Sus scrofa with 13 samples.

Results

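The genes described are the regulators and targets of the PPAR axis in pig muscle. They are the receptors PPARA, PPARD and RXRA, the coactivator PPARGC1A, the orphan receptor ESRRA, and the targets UCP3, UCP2, ANGPTL4 and PDK4. Of these 9 symbols, 8 matched 1 gene each among the 25322 gene identifiers counted in both breeds, and RXRA matched none. All 8 passed the filter on low counts in each comparison. The symbols were chosen with earlier results of these data known, partly for the lower PPARA and higher UCP3 levels of Hampshire pigs with high loin weight. Values from that comparison, and from the difference between breeds that contains it, are therefore a description and carry no test. The comparison within Pietrain was tested. So was that of the breeds averaged over loin weight, except for PPARA and UCP3, since it holds the Hampshire levels they were chosen for.

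RNA was sequenced from the longissimus lumborum muscle of 13 female pigs aged 6 months. In Hampshire, 3 pigs with high loin weight (pigs 8, 9 and 10) were set against 3 with low loin weight (pigs 1, 2 and 3). In Pietrain, 4 pigs with high loin weight (pigs 1, 2, 6 and 7) were set against 3 with low loin weight (pigs 3, 5 and 8). The pigs were unrelated, kept under the same conditions, and picked from a larger population for extreme loin weight within their breed, so the groups describe those extremes and not each breed as a whole. Whole muscle was used, in which fewer cells of a type and less RNA per cell cannot be told apart.

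PPARα and PPARδ are nuclear receptors that are switched on by fatty acids and bind DNA as partners of a retinoid X receptor. PGC-1α, the product of PPARGC1A, is a coactivator of both and of ERRα (ESRRA), and is known in muscle for its part in mitochondrial biogenesis and oxidative fibres. Their known targets in muscle include UCP3, an inner mitochondrial membrane carrier found mainly in skeletal muscle, PDK4, a kinase that shuts down the pyruvate dehydrogenase complex when fatty acids are burned, and ANGPTL4, a secreted inhibitor of lipoprotein lipase. UCP2 is a relative of UCP3 that is widely expressed, among others in macrophages.

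On Sscrofa10.2, UCP2 (ENSSSCG00000014833, chromosome 9, 9147993 to 9155011) and UCP3 (ENSSSCG00000014834, chromosome 9, 9166711 to 9179299) are neighbours, 11699 bases apart. As related genes they can share reads, and how reads with several matches were counted is not given in the sources used here. PDK4 (ENSSSCG00000015334) lies on the same chromosome at 82625077 to 82638263. ANGPTL4 (ENSSSCG00000013599) lies on chromosome 2 at 71271944 to 71279720, and ESRRA (ENSSSCG00000013028) on chromosome 2 at 6867951 to 6878759. PPARD (ENSSSCG00000001539) lies on chromosome 7 at 36141606 to 36215260. PPARGC1A (ENSSSCG00000029275) is placed on the scaffold GL896199.1 at 15045 to 57267. The position of PPARA (ENSSSCG00000000006) was not given in the tables used here.

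Total counts per pig ranged from 11312755 to 20134612. Of 10 skeletal muscle markers, 7 matched a gene, and their summed level ran from 67051 to 216080 CPM (read counts scaled to an equal library size) over the pigs. A pair of libraries lay between the breeds over all genes. Hampshire low pig 1 was at a root mean square log2 distance of 0.626 from the mean of the other Hampshire pigs and 0.607 from the Pietrain mean. Pietrain high pig 7 was at 0.585 from the other Pietrain pigs and 0.617 from the Hampshire mean. The other 11 pigs were nearer to their own breed. Some of the results below are also given without 1 or both of these pigs.

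Levels are CPM after TMM normalization over all pigs, and they are compared between pigs for 1 gene at a time, since no transcript lengths were used. Log2 fold changes are high against low loin weight, with their standard error (SE), from edgeR's quasi-likelihood fit of each breed. A gene was called where its p-value, adjusted by Benjamini-Hochberg over all genes tested, was under 0.05 and its fold change at least 1.2.

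PPARA, the receptor that drives fatty acid oxidation in fasting, had few reads in every pig. It stood at 0.272, 0.818 and 0.64 CPM in Hampshire high pigs 8, 9 and 10, against 2.02, 1.85 and 2.24 CPM in low pigs 1, 2 and 3. In Pietrain it was 3.69, 4.06, 1.95 and 2.95 CPM in high pigs 1, 2, 6 and 7, and 1.89, 2.53 and 3.76 CPM in low pigs 3, 5 and 8. The Hampshire high pigs lay below every other pig, and the other 3 groups overlapped each other. Behind these levels were 4 to 10 reads in the Hampshire high pigs and 23 to 59 in the rest, so PPARA passed the filter only through the pigs in which it was higher. The Hampshire log2 fold change, for which the gene was chosen, was −1.83 ± 0.429 (3.56-fold lower). In Pietrain it was 0.24 ± 0.379 with an adjusted p-value of 0.943.

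PPARD, the PPAR isoform that predominates in skeletal muscle, separated the pigs by breed and not by loin weight. Its level was 17.4 to 24.6 CPM over the 6 Hampshire pigs and 7.12 to 16.0 CPM over the 7 Pietrain pigs, with no overlap. Within Hampshire the high and low groups overlapped, with means of 21.0 ± 3.24 and 22.4 ± 3.01 CPM (SD, n = 3 each) and a log2 fold change of −0.10 ± 0.192. Within Pietrain the log2 fold change was 0.42 ± 0.283 with an adjusted p-value of 0.939, and pig 7 had the highest level. Without pig 7 it was 0.19.

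PPARGC1A gave the widest range of any member, 102-fold between the lowest and the highest pig. It stood at 1.98, 3.36 and 2.05 CPM in Hampshire high pigs 8, 9 and 10 and at 7.84, 4.76 and 11.8 CPM in low pigs 1, 2 and 3. In Pietrain the low pigs 3, 5 and 8 had 201, 171 and 180 CPM. Pietrain high pigs 1, 2 and 6 had 86.7, 130 and 183 CPM, whereas pig 7 had 5.55 CPM. Pig 7 thus lay within the range of the Hampshire low pigs and the remaining 6 Pietrain pigs lay far above every Hampshire pig. The Hampshire log2 fold change was −1.74 ± 0.379 (3.33-fold lower, groups without overlap). In Pietrain it was −0.84 ± 0.721 (adjusted p-value 0.939), and −0.44 ± 0.265 without pig 7.

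Pig 7 also had the highest level of the Pietrain pigs for UCP3 (107 CPM), PPARD (16.0 CPM), ANGPTL4 (16.3 CPM) and ESRRA (133 CPM), while its PPARGC1A was the lowest. ESRRA, which works with PGC-1α on genes of oxidative metabolism, varied less between the groups. It ranged from 86.3 to 107 CPM in Hampshire high pigs, 100 to 140 CPM in Hampshire low pigs, 38.1 to 133 CPM in Pietrain high pigs and 65.2 to 84.7 CPM in Pietrain low pigs. Every group overlapped the next in this order. The log2 fold changes were −0.30 ± 0.180 in Hampshire and 0.38 ± 0.356 in Pietrain (adjusted p-value 0.939), and without pig 7 the Pietrain value was 0.12.

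**Figure D1:**
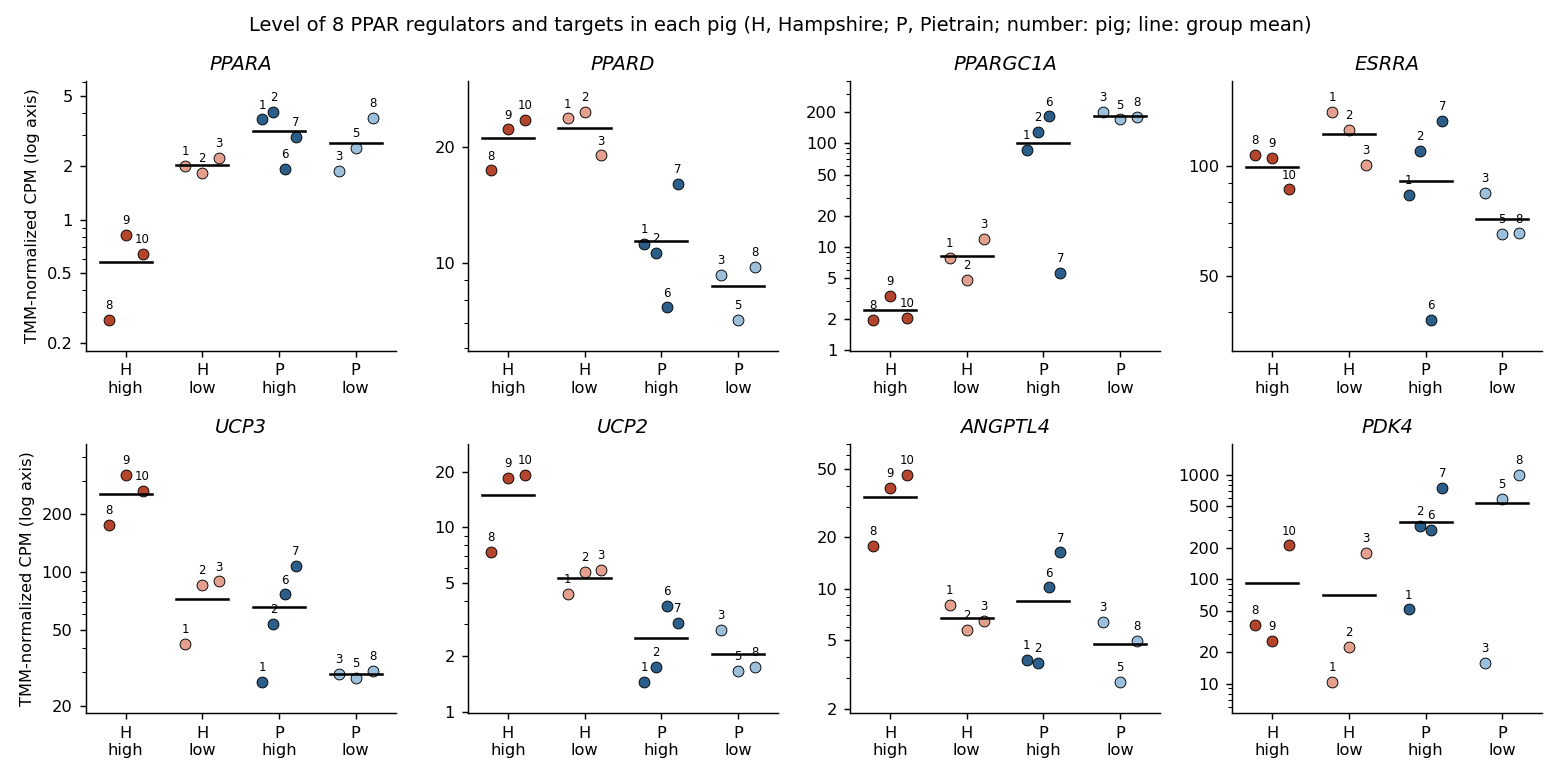
Each panel shows 1 gene, with its TMM-normalized CPM on a log axis for each pig (points, numbered by pig) in the 4 groups (H, Hampshire; P, Pietrain), and a line at the group mean. PPARA is lowest in the 3 Hampshire high pigs (0.272 to 0.818 CPM), and PPARGC1A of Pietrain pig 7 (5.55 CPM) lies among the Hampshire pigs.

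UCP3 was highest in the Hampshire high pigs, at 176, 321 and 264 CPM in pigs 8, 9 and 10. The Hampshire low pigs 1, 2 and 3 had 42.3, 85.7 and 89.3 CPM. Every Hampshire high pig lay above the other 10 pigs. Pietrain high pigs 1, 2, 6 and 7 had 26.6, 53.4, 76.3 and 107 CPM, and the low pigs 3, 5 and 8 had 29.5, 27.9 and 30.6 CPM. By mean the order of the groups was Hampshire high, Hampshire low, Pietrain high and Pietrain low. Hampshire low and Pietrain high overlapped, and so did both Pietrain groups, because Pietrain pig 1 had less UCP3 than any low pig. In Hampshire, where the gene was chosen for it, the log2 fold change was 1.81 ± 0.319, and 1.49 without low pig 1.

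In Pietrain the UCP3 log2 fold change was 1.21 ± 0.391, higher in 3 of the 4 high pigs than in all 3 low pigs. Its unadjusted p-value was 0.0109 and its adjusted p-value 0.939, so it did not pass the test. The value was 0.85 without pig 7, which had the most UCP3, and 1.49 without pig 1, which had the least. Of all genes tested in Pietrain, 1.91% had a log2 fold change at least as large in size.

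Markers of slow fibres, which hold more mitochondria, were higher as a sum in the Hampshire high group, as UCP3 was. Of the 9 slow fibre genes 5 matched, and their summed level was 11700 to 17800 CPM in Hampshire high pigs and 2834 to 6607 CPM in low pigs. Within the high group the order differed, since pig 8 had the highest sum (17800 CPM) and the least UCP3 (176 CPM). All 5 genes were called higher, as were 12% of all genes tested, and the Hampshire groups overlapped for MYH7. The list was chosen with earlier results of these pigs known. In Pietrain the sum ran from 747 to 11159 CPM in high pigs and from 27.7 to 8271 CPM in low pigs. There 0 of the 5 were called, as were 0 of all genes tested. The part of fibre type in the levels of UCP3 and PPARGC1A was not tested.

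UCP2 followed the same order at a lower number of reads. Hampshire high pigs 8, 9 and 10 had 7.36, 18.5 and 19.3 CPM and low pigs 1, 2 and 3 had 4.35, 5.74 and 5.89 CPM. The Pietrain pigs had 1.45, 1.75, 3.76 and 3.05 CPM in the high group (pigs 1, 2, 6 and 7) and 2.79, 1.66 and 1.75 CPM in the low group (pigs 3, 5 and 8). All 6 Hampshire pigs lay above all 7 Pietrain pigs, and both Hampshire groups were apart while both Pietrain groups overlapped. The log2 fold change was 1.5 ± 0.354 in Hampshire and 0.31 ± 0.437 in Pietrain, where the adjusted p-value was 0.941.

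As a sum, macrophage markers moved along with UCP2 and UCP3. Of 12 such markers 11 matched, and 10 of them had reads in every pig, the exception being MSR1 with none in 1 pig. Their summed level was 164 to 242 CPM in Hampshire high pigs, 55.5 to 136 CPM in Hampshire low pigs, 22.1 to 62.7 CPM in Pietrain high pigs and 20.5 to 31.0 CPM in Pietrain low pigs. In the Hampshire comparison 3 of the 11 were called, all higher, beside 26.6% of all genes tested that were called in either direction. Among them were TYROBP (log2 fold change 1.37) and AIF1 (1.04, a call lost in 3 of the 6 fits that left out 1 pig). The other 8 were higher too but were not called. Of these, CD68, MRC1, C1QB, MSR1 and LYZ had overlapping Hampshire groups. The part of macrophages in the UCP2 and UCP3 values was not tested.

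ANGPTL4 had the largest Hampshire difference of the members. It stood at 17.7, 38.5 and 46.2 CPM in Hampshire high pigs 8, 9 and 10 and at 8.02, 5.74 and 6.52 CPM in low pigs 1, 2 and 3. Pietrain high pigs 1, 2, 6 and 7 had 3.84, 3.71, 10.19 and 16.3 CPM, and low pigs 3, 5 and 8 had 6.41, 2.85 and 4.97 CPM. The Hampshire high pigs lay above all others, and the remaining groups overlapped. The log2 fold change was 2.34 ± 0.350 in Hampshire (5.06-fold higher). In Pietrain it was 0.88 ± 0.539 with an adjusted p-value of 0.939, and 0.33 without pig 7.

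Adipocyte markers, whose cells also make ANGPTL4, moved in the same direction in Hampshire. Of 10 such markers 6 matched, all with reads in every pig. Their summed level was 259 to 418 CPM in Hampshire high pigs, 197 to 239 CPM in low pigs, 73.8 to 208 CPM in Pietrain high pigs and 71.6 to 145 CPM in Pietrain low pigs. In Hampshire 4 of the 6 were called higher, such as CFD (1.80) and LIPE (1.82), and PLIN4 was called lower (−1.08). Of all genes tested 12% were called higher and 14.6% lower. PLIN1 was not called (1.71, adjusted p-value 0.0562 by edgeR), and its Hampshire groups overlapped. The list was chosen with earlier results of these pigs known. The part of adipocytes in the ANGPTL4 values was not tested.

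PDK4 varied more between pigs of 1 group than between groups. Hampshire high pigs 8, 9 and 10 had 36.7, 25.7 and 212 CPM, and low pigs 1, 2 and 3 had 10.3, 22.4 and 179 CPM. Pietrain high pigs 1, 2, 6 and 7 had 51.5, 324, 298 and 751 CPM, and low pigs 3, 5 and 8 had 15.8, 586 and 1005 CPM. Within the Pietrain low group alone the highest pig had 63.4 times the level of the lowest, and each group overlapped every other. The log2 fold change was 0.40 ± 1.05 in Hampshire and −0.54 ± 1.00 in Pietrain (adjusted p-value 0.947). The sign turned without Hampshire low pig 1 (−0.16), low pig 2 (−0.03) or high pig 10 (−1.18), and in Pietrain without low pig 8 (0.33). Without Hampshire low pig 3 it was 2.50.

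**Figure D2:**
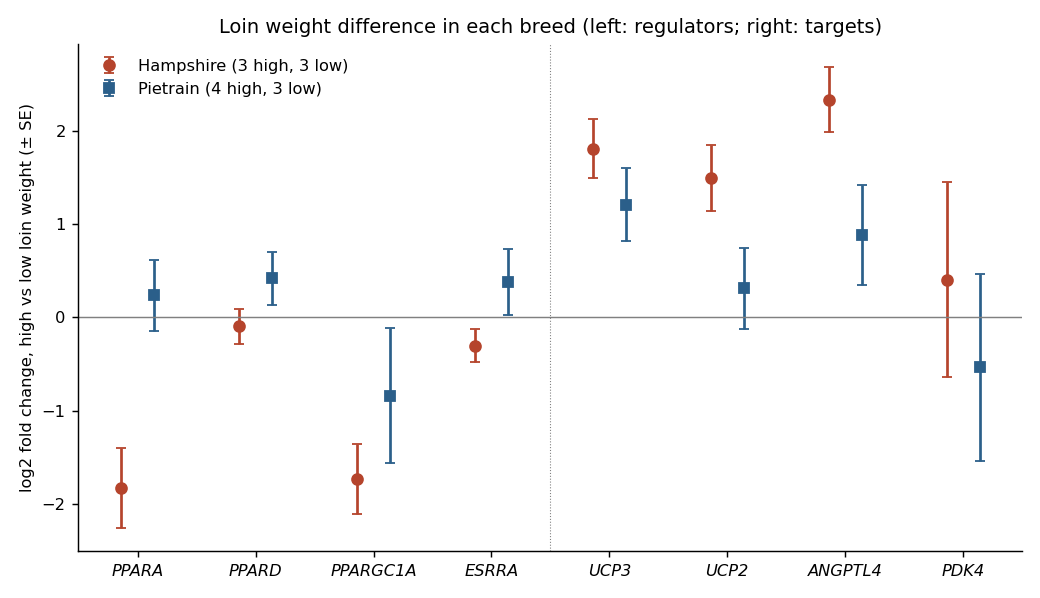
Log2 fold change of high against low loin weight with its SE for the 8 genes, in Hampshire (circles) and Pietrain (squares), regulators on the left and targets on the right. UCP3 lies above 0 in both breeds (1.81 and 1.21), whereas PPARA lies at −1.83 in Hampshire and 0.24 in Pietrain.

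In the Hampshire comparison, 5 of the 8 genes passed the thresholds that called 26.6% of the 12228 genes tested. UCP3, UCP2 and ANGPTL4 were on the higher side, where 12% of all genes were called, and PPARA and PPARGC1A on the lower side, where 14.6% were. The same 5 had groups without overlap, as 45.9% of all genes did. Since the genes were chosen with this comparison known, nothing is read from these counts. The median log2 fold change of the members was 0.15, against 0.03 over all genes tested.

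In Pietrain, edgeR called 0 of the 12065 genes tested (0%), and so 0 of the 8 members. Before adjustment 398 genes (3.30%) had a p-value under 0.05, UCP3 alone among the members. DESeq2 called 1 gene in Pietrain, ENSSSCG00000025475, which has no symbol here and is named after its value was seen. The high and low Pietrain groups were apart for 0 of the 8 members and for 4.59% of all genes. The median log2 fold change was 0.35 over the members and 0.02 over all genes.

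The difference between the breeds in the loin weight effect was taken from 1 fit over all 13 pigs. Of 12831 genes tested, 5.90% were called in it. For the members the difference, Hampshire minus Pietrain, is given with no test because it contains the comparison they were chosen on. It was −2.03 ± 0.576 on the log2 scale for PPARA and −0.87 ± 1.04 for PPARGC1A, which became −1.27 without Pietrain pig 7. Among the targets it was 1.48 ± 0.700 for ANGPTL4, 1.21 ± 0.560 for UCP2, 0.64 ± 0.549 for UCP3 and 0.96 ± 1.68 for PDK4. Without Pietrain pig 7 these were 2.02, 1.32, 0.98 and 1.63. Without Hampshire low pig 1 the UCP3 value was 0.31. PPARD and ESRRA stood at −0.48 ± 0.342 and −0.64 ± 0.447, and at −0.27 and −0.40 without Pietrain pig 7.

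Averaged over loin weight, the breeds differed in 5 of the 6 genes tested (PPARA and UCP3 left out), by the test that called 52.3% of the 12831 genes. Each breed was deposited in a count table of its own, and the breed and any difference in handling between the tables cannot be told apart. PPARGC1A had by far the largest difference of the members, 30.7-fold lower in Hampshire (log2 fold change −4.94 ± 0.594, adjusted p-value 3.4e-05). As large a difference in size was found in 0.273% of all genes. It was −5.14 ± 0.269 without Pietrain pig 7, whose level lay in the Hampshire range, and between −5.14 and −4.70 when any 1 pig was left out.

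The PPARA and UCP3 values are a description. PPARA stood at −1.44 ± 0.290 on the log2 scale, Hampshire against Pietrain. The low loin weight groups were closer to each other, with 2.04 ± 0.198 CPM in Hampshire and 2.73 ± 0.953 CPM in Pietrain (SD, n = 3 each), and overlapped. PPARD was 2.18-fold higher in Hampshire (1.12 ± 0.171, adjusted p-value 1.7e-04). UCP2 was 3.91-fold higher (1.97 ± 0.283, 1.1e-04). UCP3 stood at 1.62 ± 0.279. ANGPTL4 was 2.38-fold higher (1.25 ± 0.351, 0.00873), although the Hampshire low pigs (5.74 to 8.02 CPM) lay within the Pietrain range (2.85 to 16.3 CPM).

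PDK4 was 5.44-fold lower in Hampshire (−2.44 ± 0.901, adjusted p-value 0.0346). This call was lost in 7 of the 13 fits that left out 1 pig, with adjusted p-values of up to 0.0905 (without Pietrain low pig 8), and it was lost without both pigs that lay between the breeds (−1.86, adjusted p-value 0.111). ESRRA did not pass (0.45 ± 0.223, adjusted p-value 0.105) but did without Pietrain pig 7 (0.57, adjusted p-value 0.0349). Without both intermediate pigs 4 of the 6 genes tested were called. No pig of one breed reached the range of the other for UCP2 and PPARD, 2 of the 8 members, as was so for 12.1% of all genes.

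**Figure D3:**
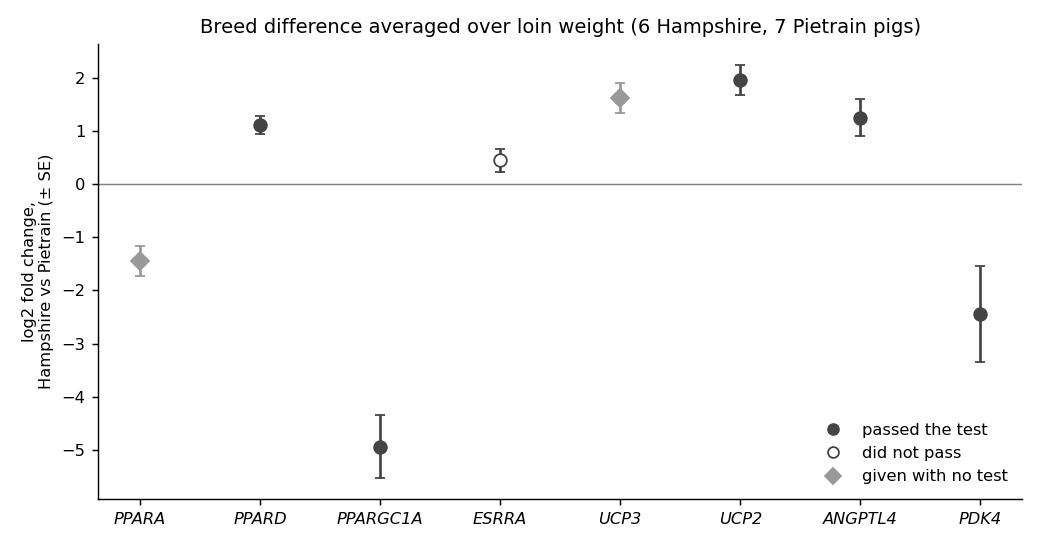
Log2 fold change of Hampshire against Pietrain, averaged over loin weight, with its SE, for the 8 genes (filled circles, passed the test; open circles, did not; grey diamonds, PPARA and UCP3, given with no test). PPARGC1A lies at −4.94, PPARA at −1.44 and PDK4 at −2.44, the targets UCP3, UCP2 and ANGPTL4 above 0.

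The genes whose pattern over pigs was most like that of UCP3 were sought among 9814 genes with a symbol. Likeness was the root mean square difference of log2 CPM over the 13 pigs after each gene was centred on its mean in each breed. Nearest were C2 (0.311), C1QC (0.364), CD14 (0.378), TYROBP (0.398) and C4BPA (0.401). C2 and C1QC encode complement components, C4BPA a binding protein that restrains complement, and CD14 and TYROBP a receptor and a signalling adaptor of myeloid cells. All 5 were lowest among Hampshire pigs in low pig 1, as UCP3 was, but they were picked for likeness over these same pigs. Of the members, UCP2 came 29th (0.483) and ANGPTL4 37th (0.499), while PPARD came 3567th, PPARA 9098th, PDK4 9766th and PPARGC1A 9802nd. UCP3 and PPARA were chosen for moving in opposite directions in the Hampshire pigs used here. The PPARA rank therefore restates that choice, and nothing is read from it. For scale, the root mean square of UCP3 itself was 0.878, which is the distance of a gene with no variation within the breeds. PPARD (0.865) lay near that value. The distance also grows with a gene's own variation, as for PDK4 (1.69) and PPARGC1A (2.02). Their ranks therefore do not tell an opposite pattern from an unrelated one.

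The 4 genes most like PPARA were BRAF (0.206), MYPN (0.22), NFATC3 (0.243) and PTPN21 (0.245), against a root mean square of 0.529 for PPARA itself. BRAF encodes a kinase of the MAP kinase cascade, MYPN a protein of the sarcomere, NFATC3 a calcium-regulated transcription factor and PTPN21 a tyrosine phosphatase. In each of them the Hampshire high pigs had the lower mean, with log2 fold changes from −1.55 to −0.86, and the Pietrain values lay between 0.08 and 0.16. The genes were picked for likeness to PPARA over these same pigs, so these values follow from the choice. PPARA stood at 0.272 to 0.818 CPM in the Hampshire high pigs. The pseudocount of 0.5 CPM used for likeness therefore makes its fall smaller there than its fitted log2 fold change. Among the members PPARD came closest to PPARA, at rank 1876. Its distance of 0.503 was near the 0.529 that a gene with no variation within the breeds would have, so no likeness is read from it.

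**Figure D4:**
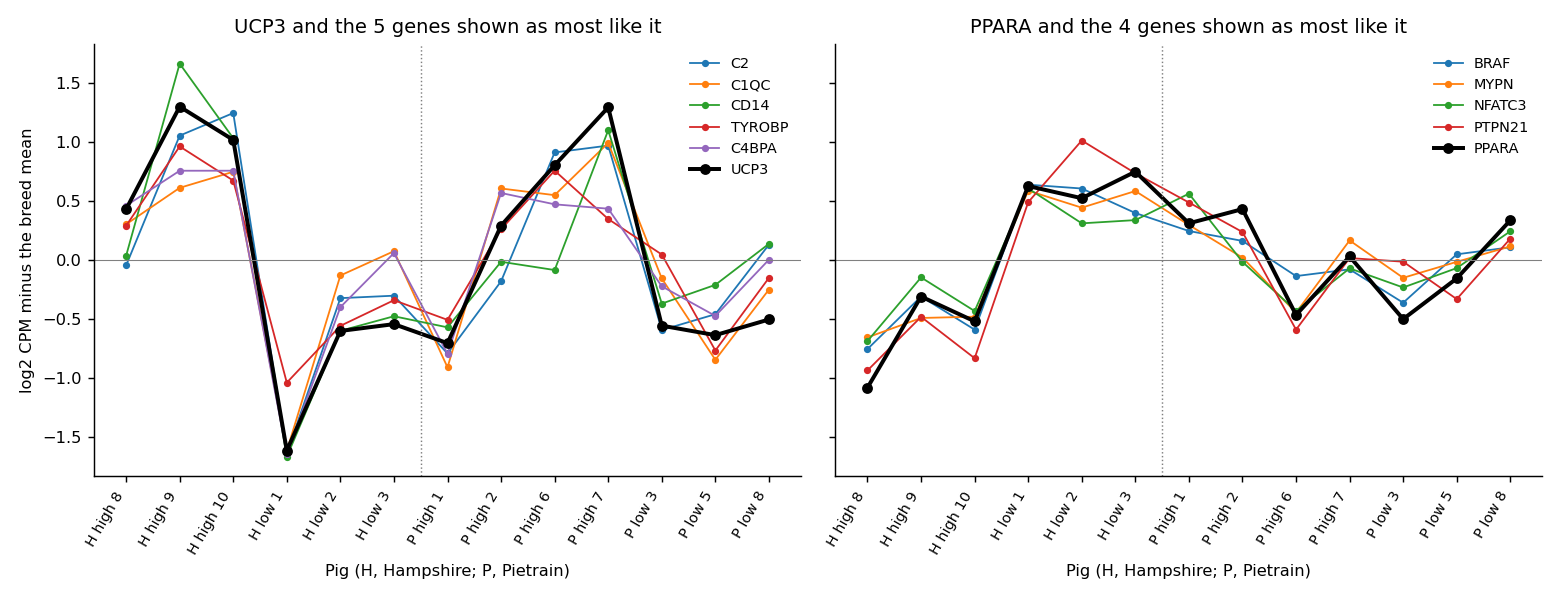
Log2 CPM minus the mean of the breed in each of the 13 pigs for UCP3 (left, black) and PPARA (right, black), with the 5 and 4 genes most like them (coloured lines). UCP3 and its 5 nearest genes are lowest in Hampshire low pig 1, and PPARA and its 4 are low in the Hampshire high pigs. The coloured genes were picked for likeness over these pigs, so the shared shape follows from the choice.

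Other genes of the pathway were counted by list, with the members left out. The lists too were chosen with earlier results of these pigs known, so their calls are no independent evidence, and each count stands beside the 26.6% called among all genes. Of 12 receptors and partners tested, 1 rose and 3 fell. NR1H3, which encodes the oxysterol receptor LXRα, rose (log2 fold change 0.95 ± 0.157, adjusted p-value 0.00534). ESRRG, a relative of ESRRA, fell (−2.42 ± 0.546, 0.0146), from 6.25 to 1.21 CPM by mean, and NR4A3 fell (−1.44 ± 0.344, 0.0176). The calls of ESRRG and NR4A3 were lost without low pig 3 (adjusted p-values 0.0615 and 0.0578) and without high pig 10 (0.0545 and 0.0601). The other retinoid X receptors did not pass, with RXRB at −0.16 ± 0.150 and RXRG at 0.60 ± 0.245, nor did PPARG at 1.54 ± 0.569 (adjusted p-value 0.0739).

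Of 16 coactivators and corepressors, 8 fell and 0 rose in the Hampshire comparison. Their median was −0.69 on the log2 scale, against 0.03 over all genes. Hampshire log2 fold changes fell as gene span (the length of the gene on the genome) grew. Spearman's rho was −0.386 over 9945 genes, against −0.089 in Pietrain. The values of list genes were not adjusted for span, and its part in these falls was not tested. NRIP1, a corepressor of nuclear receptors known for restraining oxidative genes in muscle, fell from a mean of 33.8 to 7.54 CPM (−2.17 ± 0.216, adjusted p-value 0.00118). MED1, the Mediator subunit that binds nuclear receptors, fell from 29.0 to 10.3 CPM (−1.50 ± 0.217, 0.00344). PPARGC1B, a relative of PPARGC1A, was at −1.05 ± 0.414 and did not pass.

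The lists of lipid handling moved in both directions. Of 14 genes of fatty acid uptake and transport 4 rose and 1 fell. CPT1A, a form of the enzyme that admits long-chain fatty acids to mitochondria, rose 4.89-fold (2.29 ± 0.367, adjusted p-value 0.00485). CPT1B, another form of that enzyme on the same list, did not pass (0.43 ± 0.179, adjusted p-value 0.102). FABP3, the muscle fatty acid binding protein, rose by 1.2 ± 0.232 (0.00863), whereas VLDLR fell (−0.49 ± 0.151, 0.0434). Of 16 genes of fatty acid oxidation 3 rose, among them ETFB (1.22) and ECHS1 (0.85), and ACADM fell (−0.59). Of 10 genes of the lipid droplet and lipolysis 3 rose and 0 fell. LIPE and PNPLA2, which encode the lipases of stored fat, rose by 1.82 ± 0.333 (0.00727) and 1.58 ± 0.292 (0.00746). LIPE is also on the adipocyte list. The VLDLR call was lost in each of the 6 fits that left out 1 pig and the ACADM call in 5 of them, with adjusted p-values of up to 0.112 and 0.0981. Beside ANGPTL4, of 2 related genes tested ANGPTL1 rose (1.27 ± 0.287, 0.0148), a call lost without low pig 1 or low pig 3 (adjusted p-values of up to 0.0537).

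Of 11 genes of the pyruvate dehydrogenase complex, its kinases and phosphatases, 1 rose and 4 fell. PDK2, another kinase of the complex, rose (0.65 ± 0.184, adjusted p-value 0.0331). PDP1, the phosphatase that opposes the kinases, fell from 20.7 to 7.26 CPM (−1.51 ± 0.266, 0.00646), and PDHA1, a subunit of the enzyme itself, fell (−0.89 ± 0.189, 0.0119). The PDK2 call was lost in 5 of the 6 fits that left out 1 pig (adjusted p-values of up to 0.0982). Of 5 uncoupling protein relatives and adenine nucleotide carriers, SLC25A30 fell (−1.14 ± 0.184, 0.00488) and SLC25A6 rose (0.75 ± 0.230, 0.0423). SLC25A6 has close paralogs, and 1 name source gives its identifier as SLC25A5, so its value is uncertain. Its call was lost in 5 of the 6 fits that left out 1 pig.

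Of 14 genes of fasting and glucocorticoid response, CEBPD rose (1.68 ± 0.272, adjusted p-value 0.00504) and 3 fell, among them the transcription factor FOXO3 (−1.70 ± 0.214, 0.00237) and FBXO32, a ubiquitin ligase of muscle atrophy (−1.26 ± 0.257, 0.0104). Of 6 genes of mitochondrial biogenesis 0 were called by edgeR, 0 of them at an unadjusted p-value under 0.05. The slow fibre troponins TNNC1 and TNNI1 rose by 2.06 ± 0.269 (0.00255) and 2.22 ± 0.331 (0.00372), and of 6 fast fibre genes MYH1 fell (−1.25 ± 0.374, 0.039), a call lost in each of the 6 fits that left out 1 pig. With 1 fit over all 13 pigs 11 of the genes chosen by the rule for Hampshire lost their call. They were TNNC1, TNNI1, NR4A3 and ACADM (adjusted p-values 0.192, 0.195, 0.159 and 0.119), FBXO32, PLIN4, PDK2 and AIF1 (0.0977, 0.0819, 0.0784 and 0.0775), and VLDLR, SLC25A6 and the endothelial marker TIE1 (0.0565, 0.0519 and 0.208). In Pietrain 0 genes of any of these lists were called by edgeR's test. Before adjustment 3 genes on the fasting list, 4 of the 11 macrophage markers and at most 1 gene on each other list had a p-value under 0.05. Of the remaining marker lists, the Hampshire comparison called 3 of 7 fibroblast and 2 of 8 endothelial markers, all higher, and 0 of 3 blood markers, of which 0 had an unadjusted p-value under 0.05. It called CKM higher (0.98) and NEB lower (−1.29) among the 7 muscle markers. The calls of CKM, TIE1 and the fibroblast marker COL3A1 were each lost in 5 of the 6 fits that left out 1 pig, with adjusted p-values of up to 0.132, 0.133 and 0.118. Between the breeds 2 of 7 fibroblast and 4 of 8 endothelial markers were called higher and 0 of 3 blood markers were called. Of all genes tested 52.3% were called between the breeds. The fibroblast marker DCN lost that call in 4 of the 13 fits that left out 1 pig (adjusted p-values of up to 0.0885).

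**Figure D5:**
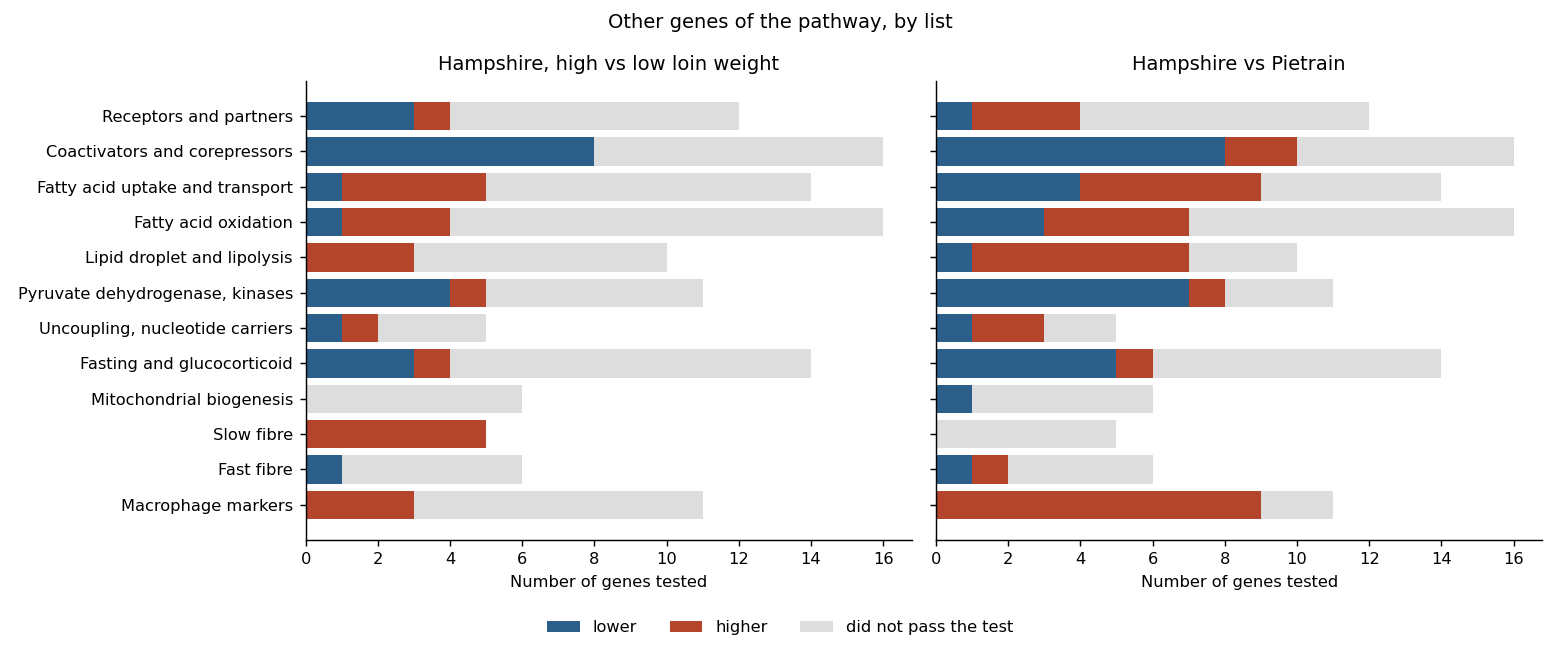
Number of genes called higher (red), lower (blue) or not called (grey) in 12 lists without the members, for high against low loin weight in Hampshire (left) and for Hampshire against Pietrain (right). The 16 coactivators and corepressors have 8 lower and 0 higher on the left, and the 5 slow fibre genes are all higher on the left and not called on the right.

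Between the breeds, read against the 52.3% called among all genes, the receptors moved in both directions. RXRG was 2.53-fold higher in Hampshire (1.34 ± 0.235, adjusted p-value 4.2e-04), NR1H3 was higher (0.70) and NR1D2, a clock repressor, lower (−1.80 ± 0.261). Of the 16 coactivators and corepressors 8 were lower, such as TBL1XR1 (−1.71 ± 0.185, 1.9e-05) and EP300 (−0.71), and 2 higher, LPIN1 (0.65) and HDAC3 (0.45). Of 11 pyruvate dehydrogenase genes 7 were lower, among them PDK1 (−1.23 ± 0.236) and PDHB (−0.44), and PDK2 was higher (0.66).

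Of 14 uptake and transport genes 5 were higher in Hampshire, such as CPT2 (1.45 ± 0.301) and SLC27A4 (1.22 ± 0.281), and 4 lower, such as ACSL4 (−1.01 ± 0.163) and VLDLR (−0.59). Of 16 oxidation genes 4 were higher, such as ACADS (0.98) and ACAA1 (0.89), and 3 lower, such as ACADM (−0.88) and DECR1 (−0.76). Of 10 lipid droplet and lipolysis genes 6 were higher, such as PNPLA2 (1.62 ± 0.227) and DGAT1 (1.28 ± 0.177), and ABHD5, the activator of PNPLA2, was lower (−0.59). The carriers SLC25A4 (0.68) and SLC25A6 (0.44) were higher and SLC25A30 lower (−0.58). CEBPD was higher (0.81), and 5 fasting genes were lower, such as SESN1 (−0.82) and GLUL (−0.76). TFB2M, which helps to start transcription of mitochondrial DNA, was lower (−0.65), and of the fibre genes TNNC2 was higher (0.52) and MYL1 lower (−0.46). The SLC25A6, TNNC2 and MYL1 calls were lost in 10, 3 and 7 of the 13 fits that left out 1 pig, with adjusted p-values of up to 0.177, 0.0656 and 0.0899. Of the macrophage markers 9 of 11 were higher in Hampshire, such as C1QC (2.37) and C1QB (2.26), and of the adipocyte markers 4 of 6, such as LIPE (1.93) and CFD (1.27).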

How the data were processed

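RNA from longissimus lumborum of 13 pigs was sequenced by the authors in single-end runs of libraries from a kit that does not mark strand (TruSeq RNA). The authors deposited raw read counts per Ensembl gene, one table for each breed, against Sscrofa10.2. The submitters' processing notes name FastQC, STAR, RSEM and DESeq2 without a role, and the counting settings are not given in the sources used here. Tables with the authors' own log2 fold changes and p-values were used only for gene positions and symbols. Further symbols came from reference tables of the Sscrofa11.1 assembly, used for names only. Of 25322 identifiers 13168 had a symbol. Of 217 list symbols 165 matched.

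Counts were fitted in R 4.3.3 with edgeR 4.0.16 (TMM, filterByExpr by group, glmQLFit, glmQLFTest). Each breed was fitted separately, a split that the study also made, but with DESeq2. The breeds and the difference in effect were taken from 1 fit over 4 groups. By its own test the study reported differentially expressed genes in Pietrain, UCP3 among them, unlike the edgeR test here. The reason for this difference was not tested. P-values measure the spread between pigs, and all 15 pairs of pigs within a group differed by more than sampling noise. SE was the log2 fold change divided by the square root of F. The members and lists were chosen with earlier results of these data known. The genes named were the members, up to 2 called genes in each direction per list and comparison with the smallest adjusted p-value (groups without overlap first), and the 5 genes most like UCP3 and PPARA (log2 CPM with a pseudocount of 0.5), of which 1 is not reported here.

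Alternatives were DESeq2 1.42.0, its size factors in edgeR, no filter, at least 10 counts in every pig, no fold change threshold, 1 fit over all 13 pigs, removal of a trend with gene span, and leaving out each pig. The scripts were tested on simulated counts. Sequences, promoter motifs and levels per transcript length were not analysed here. Plots used Python 3.11.15 and matplotlib 3.10.9.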

Additional observations from a re-analysis of the deposited data

Results flagged for a closer look

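The loin weight effect differed between the breeds for 12 genes of the pathway and marker lists that are no members. This was by the test of the difference itself in 1 fit over all 13 pigs (edgeR, p-values adjusted over all genes by Benjamini-Hochberg). Of the list symbols 165 matched a gene, and of all 12831 genes tested 5.90% were called. The lists were chosen with earlier results of these data known, so the count is no independent evidence and nothing is read from it. Of the 12 genes, the 10 that the rule for named genes takes in any comparison are given. The values are the Hampshire log2 fold change minus the Pietrain one. Among coregulators of nuclear receptors, it was −2.34 ± 0.365 for NRIP1 (adjusted p-value 0.00409), −1.42 ± 0.271 for MED1 (0.00998) and −1.71 ± 0.365 for TBL1XR1 (0.0159). For NR1H3 it was 0.94 ± 0.255 (0.0453). In metabolism it was 1.03 ± 0.246 for ECHS1 (0.026), −1.76 ± 0.360 for PDP1 (0.0131) and −1.05 ± 0.287 for SLC25A30 (0.0453).

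The difference was −2.55 ± 0.485 for FOXO3 (adjusted p-value 0.00993) and −2.65 ± 0.710 for FBXO32 (0.0421). FBXO32 had a mean of 18.8 CPM in Hampshire high pigs and 44.9 CPM in low pigs, against 50.8 CPM in Pietrain high pigs and 19.3 CPM in low pigs. NEB, a giant protein of the thin filament, was at −0.97 ± 0.241 (0.0311). When 1 pig was left out, the calls of NR1H3, ECHS1, SLC25A30, FBXO32 and NEB were lost in 12, 9, 9, 9 and 1 of the 13 fits.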

How the results depend on the processing

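Of 483 member values under alternatives 6 changed sign. They were PPARD in Hampshire with the trend with gene span removed (0.21) and PDK4 without single pigs. PPARA had no position here, so that trend could not be removed from its values. The Hampshire PDK4 log2 fold change was −0.16 without low pig 1, −0.03 without low pig 2 and −1.18 without high pig 10, and it ranged up to 2.50 without low pig 3. In Pietrain it ranged from −1.22 without high pig 7 to 0.33 without low pig 8, and the difference between the breeds from −0.66 without Hampshire high pig 10 to 3.00 without Hampshire low pig 3. Of 211 tested member values 8 lost their call, each of them PDK4 between the breeds, and 1, ESRRA between the breeds without Pietrain high pig 7, gained one. Without Pietrain high pig 7 and Hampshire low pig 1 together, an alternative chosen after seeing the data, PDK4 was at −1.86 (adjusted p-value 0.111, edgeR).

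The Hampshire comparison called 3256 genes, and 1224 to 3049 with 1 pig left out (1224, 1760 and 2091 without low pig 3, high pig 10 and high pig 9). The difference in effect was called for 757 genes, for 1224 by DESeq2, and for 379 to 1052 with 1 pig left out. In Pietrain DESeq2 called 1 gene, ENSSSCG00000025475 (−3.49, adjusted p-value 0.00144, against 0.939 by edgeR). With at least 10 counts in every pig PPARA was not tested. Of the list genes named, 19 of 35 in Hampshire, 38 of 42 between the breeds and 5 of 10 for the difference were called under each alternative, and none changed sign. No paired analysis was possible because the high and low pigs of a breed share no number, and groups of like loin weight share at most 1 number between the breeds, which names different pigs.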

Other observations

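Slow fibre genes set 1 Pietrain pig apart. The summed level of the 5 matched genes was 27.7 CPM in Pietrain low pig 5, against 6370 and 8271 CPM in low pigs 8 and 3. In the Pietrain high group it was 11017 and 11159 CPM in pigs 7 and 2 and 747 and 1471 CPM in pigs 6 and 1. The PPARGC1A level of pig 5 (171 CPM) was close to that of low pigs 3 and 8 (201 and 180 CPM), and its UCP3 level (27.9 CPM) was close to theirs (29.5 and 30.6 CPM). Pietrain low pig 3 had the least PDK4 of its breed (15.8 CPM) with a summed fasting list of 2819 CPM, and low pig 8 the most (1005 CPM) with 3163 CPM. These values were picked after they were seen and were not tested.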
